A study of Mus musculus with 9 samples.

Results

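A set of 9 genes of leukocyte adhesion was followed in Gr-1+ cells of the spleen, mostly neutrophils and their myeloid relatives, across 3 kinds of bone marrow transplant hosts. They were the integrin chains Itgam, Itgax, Itgal, Itga4 and Itgb2, the selectin ligand Selplg, and the immunoglobulin family adhesion molecules Icam1, Icam2 and Pecam1. All probes annotated to these symbols were taken, 18 of the 45281 probes on the array (9 of 19057 gene symbols), and 14 of them passed the filter on dim signals. Of the 9 genes 8 were tested, each through a probe above the background limit on all 9 arrays, and Itgax was not. The 3 groups of 3 arrays each were KO (allogeneic hosts of strain B6.129-Ido1tm1Alm/J, which lack IDO), WT (allogeneic C57BL/6 hosts) and syngeneic (C57BL/6 hosts of a syngeneic transplant, without graft-versus-host disease). All cells were taken with magnetic beads against Gr-1 (Ly6G) on day 7 after transplantation. The donor strain of the allogeneic transplants, the age and sex of the animals, whether the cells came from donor or host marrow, and whether the 3 arrays of a group were separate animals are not given in the labels. The p-values therefore reflect array-to-array spread alone, and that spread may be technical. The study asked which pathways IDO1, the enzyme that starts tryptophan breakdown, regulates in myeloid cells.

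Neutrophils leave blood in steps. The mucin PSGL-1, encoded by Selplg, lets them roll on selectins, after which activated integrins bind immunoglobulin family ligands on the vessel wall and hold the cell. Each integrin is a pair of an alpha and a beta chain: the beta chain of Itgb2 pairs with the alpha chain of Itgal to form LFA-1, of Itgam to form Mac-1 and of Itgax to form CR4, and the LFA-1 and Mac-1 integrins bind ICAM-1. The alpha chain of Itga4 pairs with that of Itgb1 or Itgb7 and binds VCAM-1 or MAdCAM-1. PECAM-1 binds itself between cells and takes part in the passage through the vessel wall.

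The reference table held promoters of 4 of the 9 genes (Itgam, Itgax, Itga4 and Icam1), and 2 of them are shown because Icam1 changed between KO and WT cells and Itgam is the integrin chain best known from neutrophils. They are the 250 bases before the annotated start, from RefSeq on build GRCm38.p6, 5′ to 3′ on the plus strand, at chr9:21015690-21015939 for Icam1 and chr7:128062390-128062639 for Itgam. Capitals mark every match, on either strand, to 5 motifs: the GAS element TTCNNNGAA, the NF-kB site GGAANTTCC, the core of the interferon-stimulated response element, the Spi1 core GAGGAA and the Sp1 box GGGCGG.
Icam1: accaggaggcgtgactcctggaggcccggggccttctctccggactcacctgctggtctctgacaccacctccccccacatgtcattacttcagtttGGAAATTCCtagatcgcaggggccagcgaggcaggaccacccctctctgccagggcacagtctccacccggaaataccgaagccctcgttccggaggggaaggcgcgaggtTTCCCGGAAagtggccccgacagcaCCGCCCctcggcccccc
Itgam: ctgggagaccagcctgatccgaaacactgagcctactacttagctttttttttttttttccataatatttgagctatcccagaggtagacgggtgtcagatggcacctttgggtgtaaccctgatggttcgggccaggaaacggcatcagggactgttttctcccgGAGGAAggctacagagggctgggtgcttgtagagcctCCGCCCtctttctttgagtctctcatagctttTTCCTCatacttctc
The Icam1 window held 1 GAS match starting 42 bases before the start, 1 NF-kB match starting 153 bases before it and 1 Sp1 box starting 17 bases before it. None of these matches overlapped another. Among 32851 promoter windows of the same length, 7.02% held the GAS motif, 0.813% the NF-kB motif and 32.7% the Sp1 box. The Itgam window held 2 Spi1 cores, starting 84 and 15 bases before the start, and 1 Sp1 box starting 47 bases before it, also without overlap; 23.3% of all windows held a Spi1 core. The interferon response core, found in 2.98% of windows, was in neither. A match describes letters only and is no measured binding site.

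Signals were already background-subtracted and normalized when deposited, and fold changes were computed with limma on log2 of the signals after a further background correction that adds 50, so fold changes of dim genes come out too small. A gene was called at an adjusted p (Benjamini-Hochberg over 10872 genes) below 0.05. Across the series, syngeneic arrays correlated with their own group at a mean r of 0.998 and KO arrays at 0.993 to 0.995, against 0.919 for WT replicate 2. On that array the summed signal of 11 neutrophil markers on the array was 71063.1, against 206399 and 198977.8 on WT replicates 1 and 3, and that of 10 T cell markers was 35367.6, against 6751.9 and 6941.6. Single neutrophil markers fell there unevenly. S100a8 and Retnlg, named here after their values were seen, were 23174.7 and 295.2 on WT replicate 2. On WT replicates 1 and 3 S100a8 was 24637.5 and 24400.6, and Retnlg was 28561.9 and 30316. Results are therefore also given without WT replicate 2. KO arrays lay on a chip of their own, while WT and syngeneic arrays shared a chip. Chip and genotype therefore cannot be told apart in KO vs WT, nor chip and group in KO vs syngeneic. Ido1, the targeted gene, had signals of -2.27, 0.648 and -8.1 in KO cells, 24.6, 33.8 and 20 in WT cells, beside 7.63, 3.87 and 13.3 in syngeneic cells, against a background limit of 14.3.

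Icam1 rose in KO cells against WT cells, Selplg and Pecam1 fell in WT cells against syngeneic cells, and Icam2 rose in both allogeneic groups against syngeneic cells. Icam1 also rose in KO cells against syngeneic cells. Pecam1 was lower on all KO arrays than on all syngeneic arrays too, but without a call (-0.67, limma adjusted p = 0.0695). The fit pools the spread of all 3 groups, so the WT arrays enter the tests of KO against syngeneic cells too. Without WT replicate 2 the Pecam1 value was again -0.67 (limma adjusted p = 3.48e-05). Of the 8 genes, 1 rose and 0 fell in KO vs WT, where 2.01% of all genes were called (1.18% higher and 0.828% lower). In WT vs syngeneic 1 rose and 2 fell, where 10.4% of all genes were called (4.8% higher and 5.64% lower). In KO vs syngeneic 2 rose and 0 fell, where 11.9% were called (5.09% higher and 6.85% lower). The median log2 fold change of the 8 genes was 0.34 in KO vs WT, -0.12 in WT vs syngeneic and 0.04 in KO vs syngeneic, beside -0.02, 0.04 and 0.02 for all genes. The 2 comparisons with syngeneic cells share the syngeneic arrays, and KO vs WT shares its arrays with both. With WT replicate 2 left out, 4 of the 8 rose in KO vs WT (Itgal, Selplg, Icam1 and Pecam1, beside 20% of all genes called, 10.2% higher and 9.76% lower). On the same arrays 1 rose and 2 fell in WT vs syngeneic (beside 29.6%, 14.6% higher and 14.9% lower), and 3 rose and 1 fell in KO vs syngeneic (beside 39.2%, 19.3% higher and 19.9% lower). Counting arrays that did not overlap between groups gave 3 members higher and 0 lower in KO vs WT (23.4% of all genes, 10.8% higher and 12.6% lower). It gave 1 higher and 3 lower in WT vs syngeneic (38.5%, 21.9% higher and 16.6% lower), and 3 higher and 1 lower in KO vs syngeneic (49.3%, 24.9% higher and 24.4% lower).

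**Figure D1:**
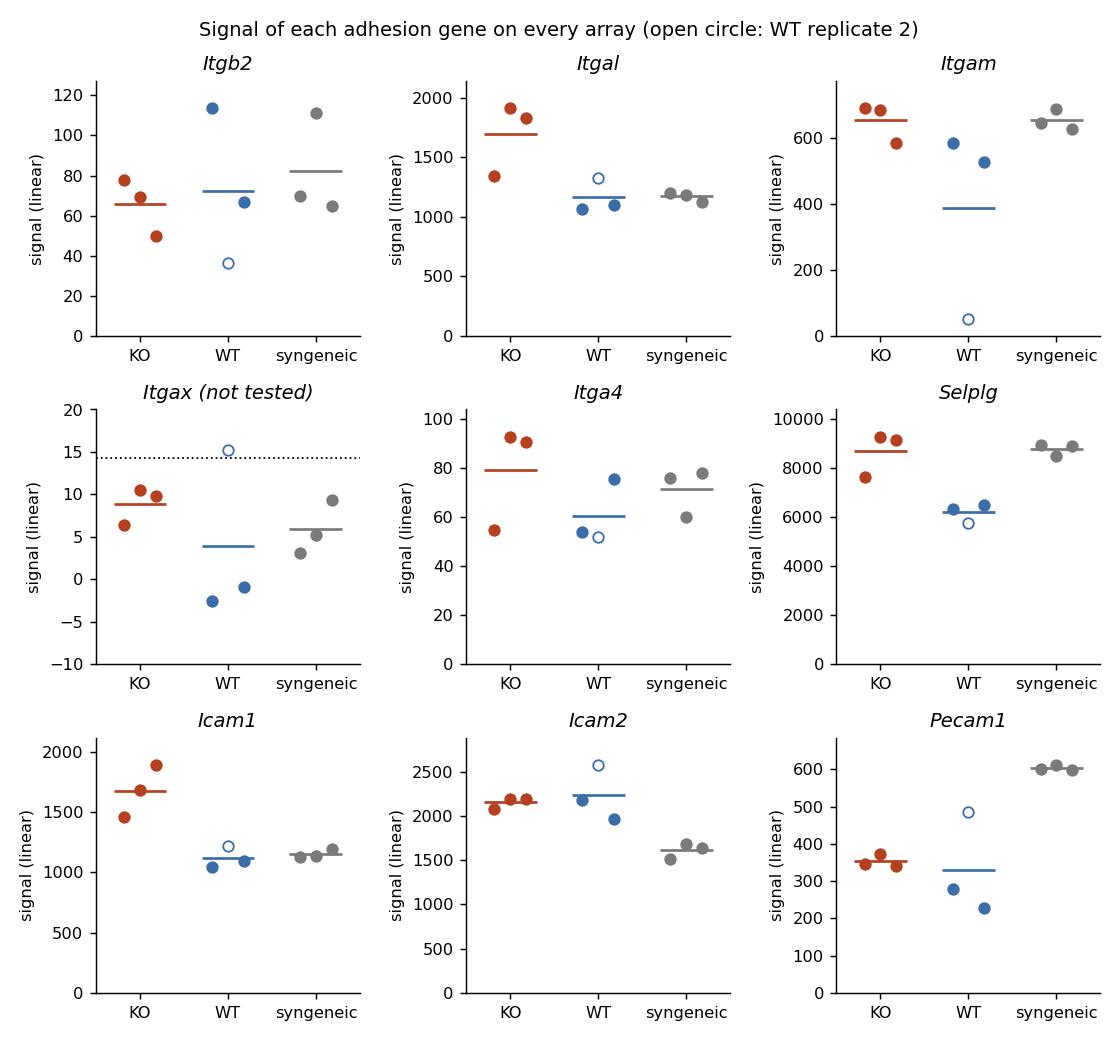
Signal (linear scale, vertical axis) of the probe that stands for each of the 9 genes on the 3 arrays of KO, WT and syngeneic cells; points are arrays, bars are group means, and the open circle is WT replicate 2. The 3 KO arrays lie above all WT and syngeneic arrays for Itgal and Icam1, the 3 WT arrays lie below all others for Selplg, and the 3 syngeneic arrays lie above all others for Pecam1 and below all others for Icam2; the dotted line for Itgax is the background limit of 14.3.

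On its only probe, the beta chain gene Itgb2, shared by the LFA-1, Mac-1 and CR4 integrins, was dim and varied within groups. Its signal was 78.0, 69.1 and 50.1 on KO replicates 1, 2 and 3, 113.5, 36.3 and 66.7 in WT cells, beside 69.9, 111.4 and 64.9 in syngeneic cells. The 3 groups overlapped, and with only this probe a weak probe and little RNA cannot be told apart. The log2 fold change was -0.04 ± 0.21 in KO vs WT (SE, n = 3 arrays per group, 95% interval -0.52 to 0.45, limma adjusted p = 0.941), and in neither comparison with syngeneic cells did it pass (adjusted p = 0.734 and 0.698 in limma).

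Itgal, the alpha chain of LFA-1, was brighter in KO cells. Its signal was 1339.6, 1911.3 and 1826.3 in KO cells, 1062.4, 1326.8 and 1102.4 in WT cells, beside 1202.1, 1184.5 and 1126.9 in syngeneic cells. All 3 KO arrays lay above all arrays of both other groups, with KO replicate 1 only just above WT replicate 2, while WT and syngeneic arrays overlapped. The KO arrays were also the ones on a separate chip. The log2 fold change was 0.51 ± 0.14 in KO vs WT (limma adjusted p = 0.116) and 0.49 ± 0.14 in KO vs syngeneic (adjusted p = 0.0622), neither called. After WT replicate 2 was left out, Itgal rose by 0.60 in KO vs WT (limma adjusted p = 0.00719) and by 0.49 in KO vs syngeneic (adjusted p = 0.00492). T lymphocytes also carry LFA-1, and of 11 T cell markers 10 were on the array. Their summed signal was 10510.6 to 17372.3 in KO cells, 6751.9 to 35367.6 in WT cells and 8566.4 to 9191.5 in syngeneic cells, with Cd8a and Cd5 not above the limit on any array. Cd8b1 differed little between arrays, at 4434.5 to 5864.8, and gave 5298.5 and 5567.2 of the sums on WT replicates 1 and 3. Of 8 tested T cell markers 0 were called in KO vs WT with all arrays in limma. Without WT replicate 2, 7 of the 8 rose, beside 10.2% of all genes. WT replicate 2 had the highest T cell marker sum of all arrays and the highest Itgal signal of its group, though one below all 3 KO arrays. The sums of WT replicates 1 and 3, 6751.9 and 6941.6, lay below those of all KO arrays, and KO replicate 1 was lowest of its group in both the sum and Itgal. The part of these cells in the Itgal values was not tested. In bulk samples, more cells of a type and more RNA per cell cannot be told apart.

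Itgam, the alpha chain of Mac-1 and the chain known as CD11b, had similar signals on 8 of the 9 arrays. They were 690.5, 686.5 and 586.1 in KO cells, 586.7, 52.8 and 529.0 in WT cells, beside 646.7, 687.1 and 627.9 in syngeneic cells. The WT replicate 2 value differed by -2.39 on the log2 scale from the average of the other WT arrays, and the neutrophil marker sum was also lowest there. All 3 WT arrays lay below all syngeneic arrays. The log2 difference was 1.00 ± 0.56 in KO vs WT (limma adjusted p = 0.382), and 0.21 ± 0.09 without that array (adjusted p = 0.143). In WT vs syngeneic it was -1.002 ± 0.562 (limma adjusted p = 0.286) and -0.21 ± 0.09 without WT replicate 2 (adjusted p = 0.118). KO and syngeneic cells differed by -0.002, with a 95% interval of -1.29 to 1.29 that the spread of the WT arrays widens.

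Itgax, the alpha chain known as CD11c and a marker of dendritic cells and some macrophages, was near background. Its brighter probe had signals of 6.42, 10.5 and 9.87 in KO cells, -2.54, 15.2 and -0.898 in WT cells, beside 3.14, 5.25 and 9.38 in syngeneic cells. Only WT replicate 2 exceeded the limit of 14.3, and the second probe was at 0.226 or lower on every array, so no fold change is given. Itga4, the chain shared by the VLA-4 and LPAM-1 integrins, had 6 probes, of which 4 passed. The brightest gave 55.0, 92.8 and 90.5 in KO cells, 54.0, 51.9 and 75.5 in WT cells, beside 75.9, 60.0 and 78.1 in syngeneic cells. The groups overlapped, and the log2 fold change of 0.19 ± 0.13 in KO vs WT did not pass (limma adjusted p = 0.462; 95% interval -0.11 to 0.49). The other 3 passing probes gave 0.03, -0.11 and 0.15 for the same comparison.

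Selplg, the gene of the selectin ligand PSGL-1, fell in WT cells against syngeneic cells. Its brighter probe had signals of 7632.6, 9286.7 and 9163.7 in KO cells, 6357.6, 5782.3 and 6515.5 in WT cells, beside 8958.2, 8501.3 and 8928.9 in syngeneic cells. All WT arrays lay below all KO and all syngeneic arrays, and KO and syngeneic arrays overlapped. The log2 fold change was -0.50 ± 0.10 in WT vs syngeneic (limma adjusted p = 0.0166), 0.48 ± 0.10 in KO vs WT (adjusted p = 0.055, not called) and -0.02 ± 0.10 in KO vs syngeneic (adjusted p = 0.922, 95% interval -0.25 to 0.20). Without WT replicate 2 the values were -0.45 (limma adjusted p = 0.00444) in WT vs syngeneic and 0.42 (adjusted p = 0.0101) in KO vs WT. Leaving out syngeneic replicate 1, 2 or 3 ended the call in WT vs syngeneic (limma adjusted p = 0.0758, 0.0583 and 0.074), as did the mean of both probes (adjusted p = 0.0538).

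The second Selplg probe did not separate the groups in the same way. It gave 3487.8, 3973.1 and 3870.3 in KO cells, 3719.6, 2609.6 and 3693.0 in WT cells, beside 4112.7, 3930.6 and 4250.8 in syngeneic cells. WT replicate 2 was the lowest of all arrays here, and WT replicates 1 and 3 lay within the range of KO cells. All 3 WT arrays lay below all syngeneic arrays, as on the brighter probe. Its log2 fold change was 0.19 in KO vs WT and -0.31 in WT vs syngeneic (limma adjusted p = 0.501 and 0.196). Without WT replicate 2 the values were 0.02 and -0.14 (limma adjusted p = 0.878 and 0.245). None was called, with p adjusted over all passing probes. The probes thus disagree on the size of the difference, and without WT replicate 2 the second showed almost none in KO vs WT. They were designed on different transcript records as the annotation lists them.

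**Figure D2:**
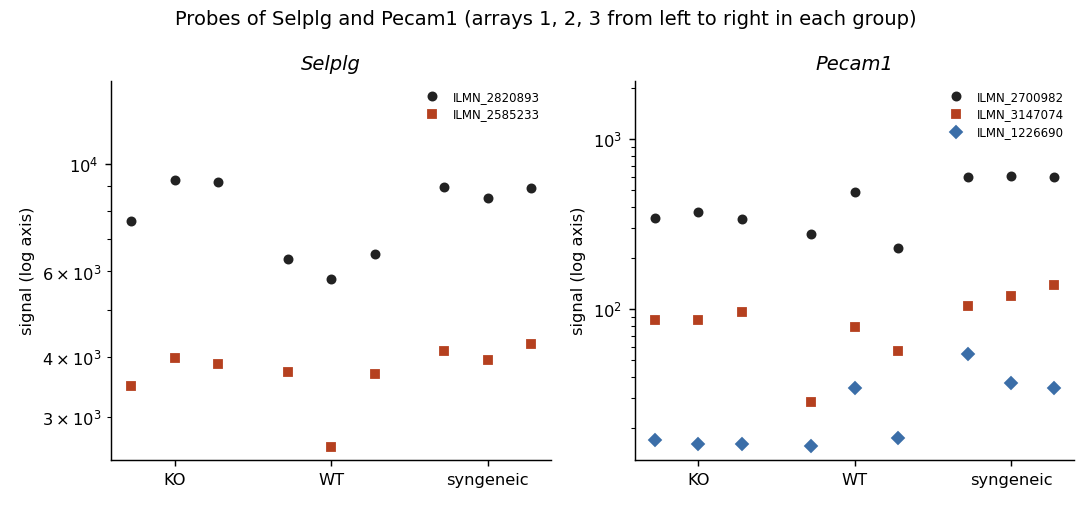
Signal on a log axis of each passing probe of Selplg (2 probes) and Pecam1 (3 probes) on every array, arrays grouped as KO, WT and syngeneic. The brighter Selplg probe is lower on all 3 WT arrays than on all others. The other probe is lower on all 3 WT arrays than on the syngeneic arrays, but only WT replicate 2 lies below all KO arrays. The Pecam1 probes are highest in syngeneic cells except that the dimmest probe on WT replicate 2 (34.4) equals the lowest syngeneic value.

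Icam1, an inducible ligand of LFA-1 and Mac-1 that inflammatory cytokines raise on many cells, was higher in KO cells than in both other groups. Its signal was 1455.8, 1677.6 and 1885.9 in KO cells, 1046.5, 1219.1 and 1095.1 in WT cells, beside 1127.7, 1136.8 and 1188.4 in syngeneic cells. All 3 KO arrays lay above all 6 others, and WT and syngeneic arrays overlapped. These 6 arrays shared a chip that the KO arrays were not on, so chip and group cannot be told apart in either comparison. Its log2 fold change was 0.55 ± 0.11 in KO vs WT, 1.46-fold (SE, n = 3 arrays per group, limma adjusted p = 0.0468), and 0.51 ± 0.11 in KO vs syngeneic, 1.42-fold (adjusted p = 0.0185). WT and syngeneic cells differed by -0.04 ± 0.11 (limma adjusted p = 0.84, 95% interval -0.28 to 0.21). Without WT replicate 2 Icam1 rose by 0.61 in KO vs WT (limma adjusted p = 0.00183).

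The KO vs WT call of Icam1 lay close to the threshold. It ended when KO replicate 2 or 3 was left out (limma adjusted p = 0.174 and 0.162), or WT replicate 1 or 3 (0.117 and 0.112), or a syngeneic replicate (0.104, 0.107 and 0.108), and held without KO replicate 1 or WT replicate 2. Its value lay between 0.11 and 0.66 in 21 alternatives, of which 8 kept the call. The rise in KO vs syngeneic lost its call without KO replicate 2 or 3 or any syngeneic replicate (limma adjusted p between 0.0613 and 0.0782). An alternative, neqc, is a background correction from the detection p-values made for raw signals, while these signals were already background-subtracted and normalized. Under neqc the log2 fold changes of 4 called genes moved by over 1.5 times: to 0.11 for Icam1 in KO vs WT, -1.29 for Selplg, 0.13 for Icam2 and -0.04 for Pecam1 in WT vs syngeneic, and 0.10 for Icam1 and 0.11 for Icam2 in KO vs syngeneic. Beside this rise, the summed signal of 10 monocyte and macrophage markers on the array, of 12 listed, was 11396.2 to 15380.3 in KO cells, 2190.0 to 6628.5 in WT cells and 41763.6 to 42985.1 in syngeneic cells, with Cd5l not above the limit on any array. The sum was thus higher in KO than in WT cells, as Icam1 was, and highest in syngeneic cells, whose Icam1 signals lay below all KO arrays. The markers of this list did not all follow the sum. Without WT replicate 2, 4 of the 9 tested rose in KO vs WT and 1 fell, beside 10.2% and 9.76% of all genes. The 1 that fell was Ccr2 (-1.40, limma adjusted p = 4.21e-05). KO replicate 1 had the lowest Icam1, Itgal and Selplg signals of its group and also its lowest T cell marker sum, 10510.6. The highest KO sum, 17372.3, was on replicate 3, as was the highest Icam1, while Itgal and Selplg were highest on replicate 2. WT replicate 2 had the highest sum of all arrays, 35367.6, and the lowest Selplg, 5782.3. Its Icam1, 1219.1, was the highest of its group but below all KO arrays. The part of macrophages and of T cells in the Icam1 rise was not tested.

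Icam2, a ligand of LFA-1 found on resting endothelium and leukocytes, rose in both allogeneic groups. Its signal was 2081.0, 2184.1 and 2188.2 in KO cells, 2176.1, 2570.3 and 1960.1 in WT cells, beside 1515.8, 1679.4 and 1638.9 in syngeneic cells. The syngeneic arrays lay below all others, and KO and WT arrays overlapped. Its log2 fold change was 0.45 ± 0.11 in WT vs syngeneic (1.37-fold, limma adjusted p = 0.033) and 0.40 ± 0.11 in KO vs syngeneic (1.32-fold, adjusted p = 0.0443). KO and WT cells differed by -0.05 ± 0.11 (limma adjusted p = 0.846, 95% interval -0.29 to 0.20). Without WT replicate 2 the rise was 0.35 in WT vs syngeneic (limma adjusted p = 0.00919). Of the 9 arrays left out in turn, 6 ended the call of Icam2 in WT vs syngeneic: KO replicates 2 and 3, WT replicate 1 and the 3 syngeneic replicates (limma adjusted p between 0.0597 and 0.131). Without each KO or syngeneic replicate or WT replicate 1 the call in KO vs syngeneic ended too (limma adjusted p between 0.0654 and 0.162). Summed signals of the 12 endothelial markers were 1118.5 to 1261.5 in KO cells, 892.1 to 3211.0 in WT cells and 1378.1 to 1508.7 in syngeneic cells, with Tie1 and Emcn not above the limit on any array. The high sum in WT cells was that of WT replicate 2, where Egfl7 alone gave 2519.3. WT replicates 1 and 3 had sums of 993.3 and 892.1.

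Pecam1, or CD31, carried by endothelium, platelets and leukocytes, fell in WT cells against syngeneic cells. Its brightest probe had signals of 345.4, 373.7 and 340.6 in KO cells, 278.1, 486.5 and 228.6 in WT cells, beside 600.0, 610.7 and 598.3 in syngeneic cells. The syngeneic arrays lay above all others, and WT replicate 2 lay above the KO arrays. Its log2 fold change was -0.81 ± 0.20 in WT vs syngeneic (limma adjusted p = 0.0422), -0.67 ± 0.20 in KO vs syngeneic (adjusted p = 0.0695, not called) and 0.13 ± 0.20 in KO vs WT (adjusted p = 0.76). Without WT replicate 2 it fell in WT vs syngeneic (-1.07, limma adjusted p = 2.23e-06) and in KO vs syngeneic (-0.67, adjusted p = 3.48e-05), and it rose by 0.40 in KO vs WT (adjusted p = 0.00917). The call in WT vs syngeneic ended without any 1 of the 8 other arrays (limma adjusted p between 0.0635 and 0.132).

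The 2 dimmer Pecam1 probes were also highest in syngeneic cells. The second gave 86.7, 86.5 and 96.6 in KO cells, 28.6, 78.3 and 56.9 in WT cells, beside 104.0, 119.3 and 138.4 in syngeneic cells. The third gave 17, 16.1 and 16.2 in KO cells, 15.6, 34.4 and 17.4 in WT cells, beside 54.3, 36.6 and 34.4 in syngeneic cells. Their log2 fold changes in WT vs syngeneic were -0.64 and -0.28, against -0.81 for the brightest. Platelet markers, all 8 on the array, summed to 158.6 to 210.1 in KO cells, 206.0 to 622.4 in WT cells and 392.0 to 567.4 in syngeneic cells, with Pf4 not above the limit on any array. The high sum in WT cells was that of WT replicate 2, the WT array with the highest Pecam1 signal. The 8 erythroid markers on the array summed to 2299.8 to 10087.2 in KO cells, 10433.9 to 71388.2 in WT cells and 65557.9 to 66828.7 in syngeneic cells, and WT replicate 2 again had the highest. The monocyte and macrophage marker sums given above were also highest in syngeneic cells, and higher in KO cells than on WT replicates 1 and 3. WT replicate 2 had the lowest of these sums, 2190.0, but the highest Pecam1 signal of the WT arrays. The part of all these cells in the Pecam1 values was not tested.

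**Figure D3:**
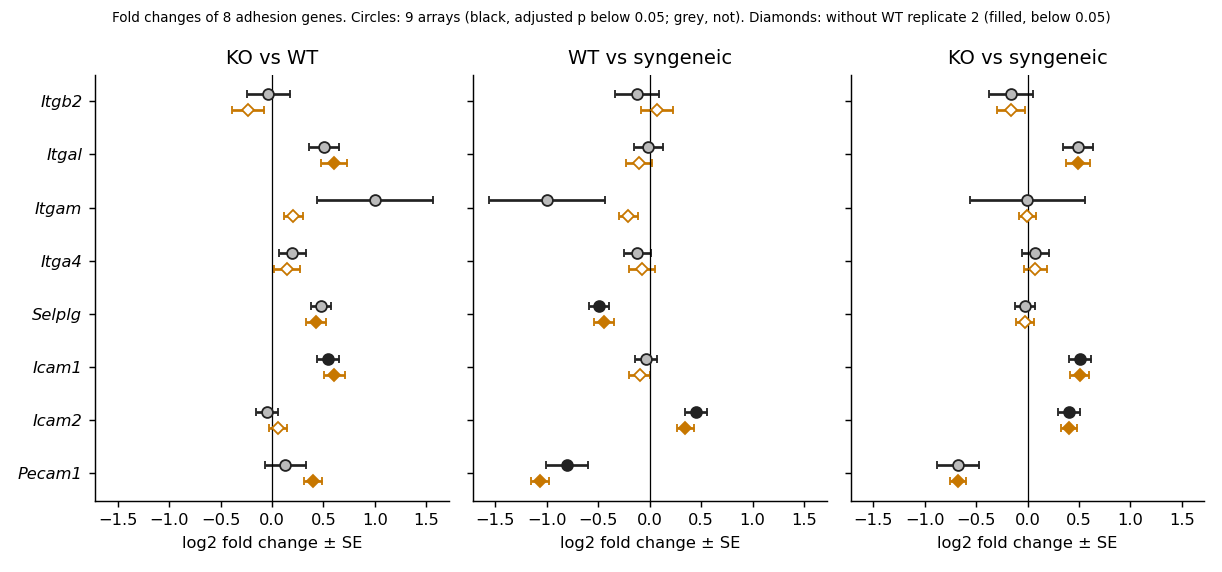
Log2 fold change ± SE of the 8 tested genes in KO vs WT, WT vs syngeneic and KO vs syngeneic; circles use all 9 arrays and diamonds leave out WT replicate 2, with filled black circles and filled diamonds for an adjusted p below 0.05. In KO vs WT Icam1 is the 1 filled circle, at 0.55, and Itgam moves most between circle and diamond (0.21 without WT replicate 2 and 1.00 with it).

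**Figure D4:**
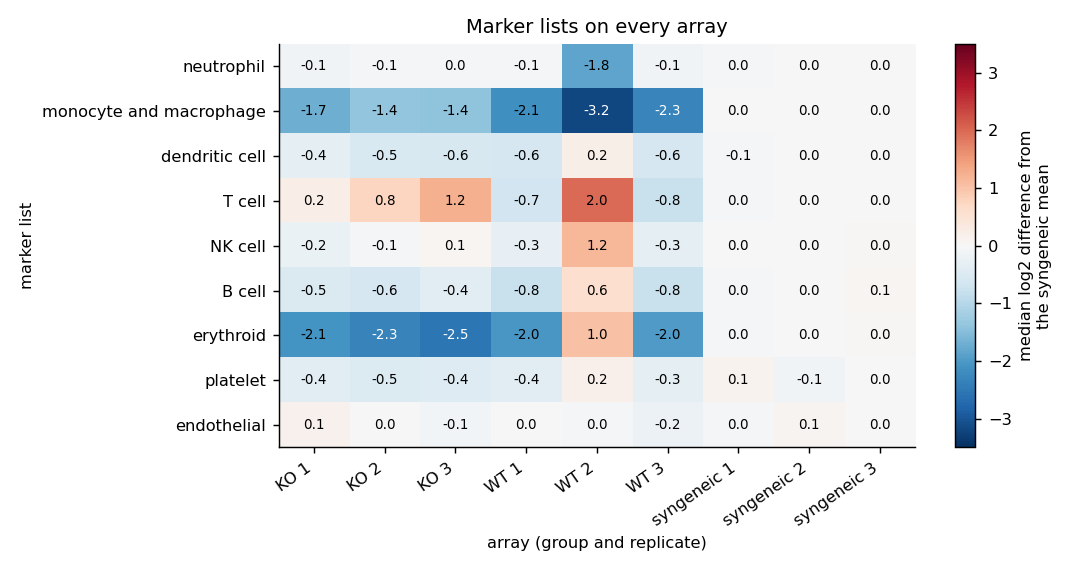
Median log2 difference from the syngeneic mean (colour and printed number) of 9 marker lists on each KO, WT and syngeneic array. WT replicate 2 lies below WT replicates 1 and 3 in the neutrophil (-1.84) and the monocyte and macrophage list (-3.18) and above them in the T cell (1.97), NK cell (1.17), erythroid (1.02), B cell (0.60), dendritic cell (0.22) and platelet (0.18) lists, and the monocyte and macrophage list is lower on all KO and WT arrays than on the syngeneic arrays.

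Other genes of the adhesion cascade were followed in 4 lists of 90 genes, of which 85 were on the array and 68 were tested. In KO vs WT 2 of them rose while 0 fell (2.94%, beside 2.01% of all genes). In WT vs syngeneic 2 rose and 10 fell, and in KO vs syngeneic 3 rose and 12 fell (17.6% and 22.1%, beside 10.4% and 11.9% of all genes). Without WT replicate 2 11 rose and 3 fell in KO vs WT (20.6%, beside 20% of all genes), 7 rose and 22 fell in WT vs syngeneic (42.6%, beside 29.6%), and 13 rose and 25 fell in KO vs syngeneic (55.9%, beside 39.2%). The KO vs WT share on these arrays was near that of all genes. Of the 29 calls made with all arrays, 14 held in all 21 alternatives, which for these genes were added after the data were seen. The calls of Vcam1 in KO vs WT, of Itga5, Itgav and Glg1 in WT vs syngeneic, and of Itgav, Cd99l2, Jaml and Apbb1ip in KO vs syngeneic held in 7 to 11 of them.

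Among other integrin chains, 13 of 21 were tested. The 1 called in KO vs WT was Itgad, the alpha chain CD11d that pairs with the Itgb2 chain and that mouse splenic red pulp macrophages carry. In the RefSeq gene order Itgam, Itgax and Itgad stand next to each other. Itgad had signals of 805.0, 952.9 and 810.6 in KO cells, 352.4, 291.7 and 398.7 in WT cells, beside 3915.1, 3470.6 and 3980.2 in syngeneic cells. The 3 groups did not overlap. It rose in KO vs WT, with a log2 fold change of 1.16 ± 0.12 (limma adjusted p = 0.00498), and fell in WT vs syngeneic (-3.22 ± 0.12, adjusted p = 3.31e-06) and in KO vs syngeneic (-2.06 ± 0.12, adjusted p = 3.69e-05). In KO vs WT the call ended with only the 6 arrays compared (limma adjusted p = 0.085) and under neqc (0.09, adjusted p = 0.336), and the mean of its probes gave 0.74 (adjusted p = 0.0416). Its neighbour Itgam passed in none of the 3 comparisons. Itga9, the alpha chain of another beta 1 integrin, fell in WT vs syngeneic (-3.03 ± 0.16) and in KO vs syngeneic (-2.29 ± 0.16). Itgb5, a beta chain that pairs with the Itgav chain to bind vitronectin, fell in the same comparisons (-1.73 ± 0.17 and -1.46 ± 0.17), as did Itgav itself (-0.60 ± 0.15 and -0.57 ± 0.15). Itga1, the alpha chain of a collagen receptor, fell in KO vs syngeneic (-0.87 ± 0.19).

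Against these falls, Itgb7, the beta chain that joins the Itga4 chain in the gut-homing integrin LPAM-1, rose in both allogeneic groups. Its signal was 3631.8, 4822.3 and 4778.3 in KO cells, 4783.5, 6157.8 and 4892.5 in WT cells, beside 2570.3, 3029.1 and 2878.8 in syngeneic cells. All allogeneic arrays lay above all syngeneic arrays. It rose by 0.88 ± 0.15 in WT vs syngeneic (limma adjusted p = 0.00752) and by 0.62 ± 0.15 in KO vs syngeneic (adjusted p = 0.0295). Itga5, the alpha chain of the fibronectin receptor, rose by 0.39 ± 0.10 in WT vs syngeneic (limma adjusted p = 0.0405).

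Of selectins and the enzymes that build their ligands, 16 of 20 genes were tested and 0 were called in KO vs WT in limma, where 6 of the 16 had an unadjusted p below 0.05, as did 18.9% of all genes. Gcnt1, the core 2 branching enzyme that PSGL-1 needs to bind selectins, fell in WT vs syngeneic (-1.13 ± 0.11, limma adjusted p = 0.000543) and in KO vs syngeneic (-0.85 ± 0.11, adjusted p = 0.0023). Its signals were 589.0, 655.4 and 787.3 in KO cells, 549.1, 564.9 and 510.8 in WT cells, beside 1335.4, 1153.3 and 1319.7 in syngeneic cells, without overlap between either allogeneic group and syngeneic cells. Glg1, the gene of an E-selectin ligand, fell in WT vs syngeneic (-0.40 ± 0.09). Tpst1, which sulfates tyrosines such as those of PSGL-1, rose by 0.69 ± 0.11 in KO vs syngeneic (limma adjusted p = 0.00439).

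Of other immunoglobulin family adhesion molecules 16 of 20 were tested. Vcam1, the ligand of integrins with the Itga4 chain, rose by 1.21 ± 0.22 in KO vs WT (limma adjusted p = 0.034) and fell in WT vs syngeneic (-3.56 ± 0.22) and in KO vs syngeneic (-2.35 ± 0.22). Its signal was 3048.0, 3868.3 and 3182.2 in KO cells, 1704.1, 938.6 and 1738.8 in WT cells, beside 17536.6, 17117.7 and 17368.8 in syngeneic cells, so the order of the groups was that of Itgad. The KO vs WT call of Vcam1 ended without KO replicate 2 or 3, WT replicate 1 or 3, or any syngeneic replicate (limma adjusted p between 0.0597 and 0.145) and with only the 6 arrays compared (adjusted p = 0.209). The mean of its probes gave 0.53 and neqc 0.45, both still called. The monocyte and macrophage marker sums given above had the same order, and of 9 tested markers of that list 7 fell in WT vs syngeneic (beside 5.64% of all genes), 6 fell in KO vs syngeneic (beside 6.85%) and 2 rose in KO vs WT (beside 1.18%). The part of macrophages in the Vcam1 and Itgad values was not tested. Esam and Mcam, adhesion molecules best known from endothelium, fell in WT vs syngeneic (-1.10 ± 0.12 and -1.48 ± 0.15) and in KO vs syngeneic (-0.78 ± 0.12 and -1.32 ± 0.15); Mcam was above the limit on 2 of 3 WT arrays. Cd99l2, related to the transmigration molecule CD99, fell in KO vs syngeneic (-0.67 ± 0.18), and Jaml, a leukocyte molecule that binds the coxsackie and adenovirus receptor, rose by 0.89 ± 0.24 (limma adjusted p = 0.0472 for both).

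Of genes that activate integrins or signal from them, 23 of 29 were tested and 0 were called in KO vs WT in limma, where 4 of the 23 had an unadjusted p below 0.05, beside the 18.9% of all genes. Fyb, the adaptor ADAP that links receptors to integrin activation, fell in WT vs syngeneic (-0.53 ± 0.08, limma adjusted p = 0.00362) and in KO vs syngeneic (-0.46 ± 0.08, adjusted p = 0.0063). Apbb1ip, or RIAM, which brings talin to integrins, fell in KO vs syngeneic (-0.33 ± 0.07, limma adjusted p = 0.0228). Fermt3, or kindlin-3, without which leukocyte integrins do not activate, is named here after its values were seen. It averaged 3303.9 in KO cells, 3287.9 in WT cells, beside 3309.0 in syngeneic cells, with log2 fold changes of -0.004, -0.009 and -0.013 in KO vs WT, WT vs syngeneic and KO vs syngeneic.

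**Figure D5:**
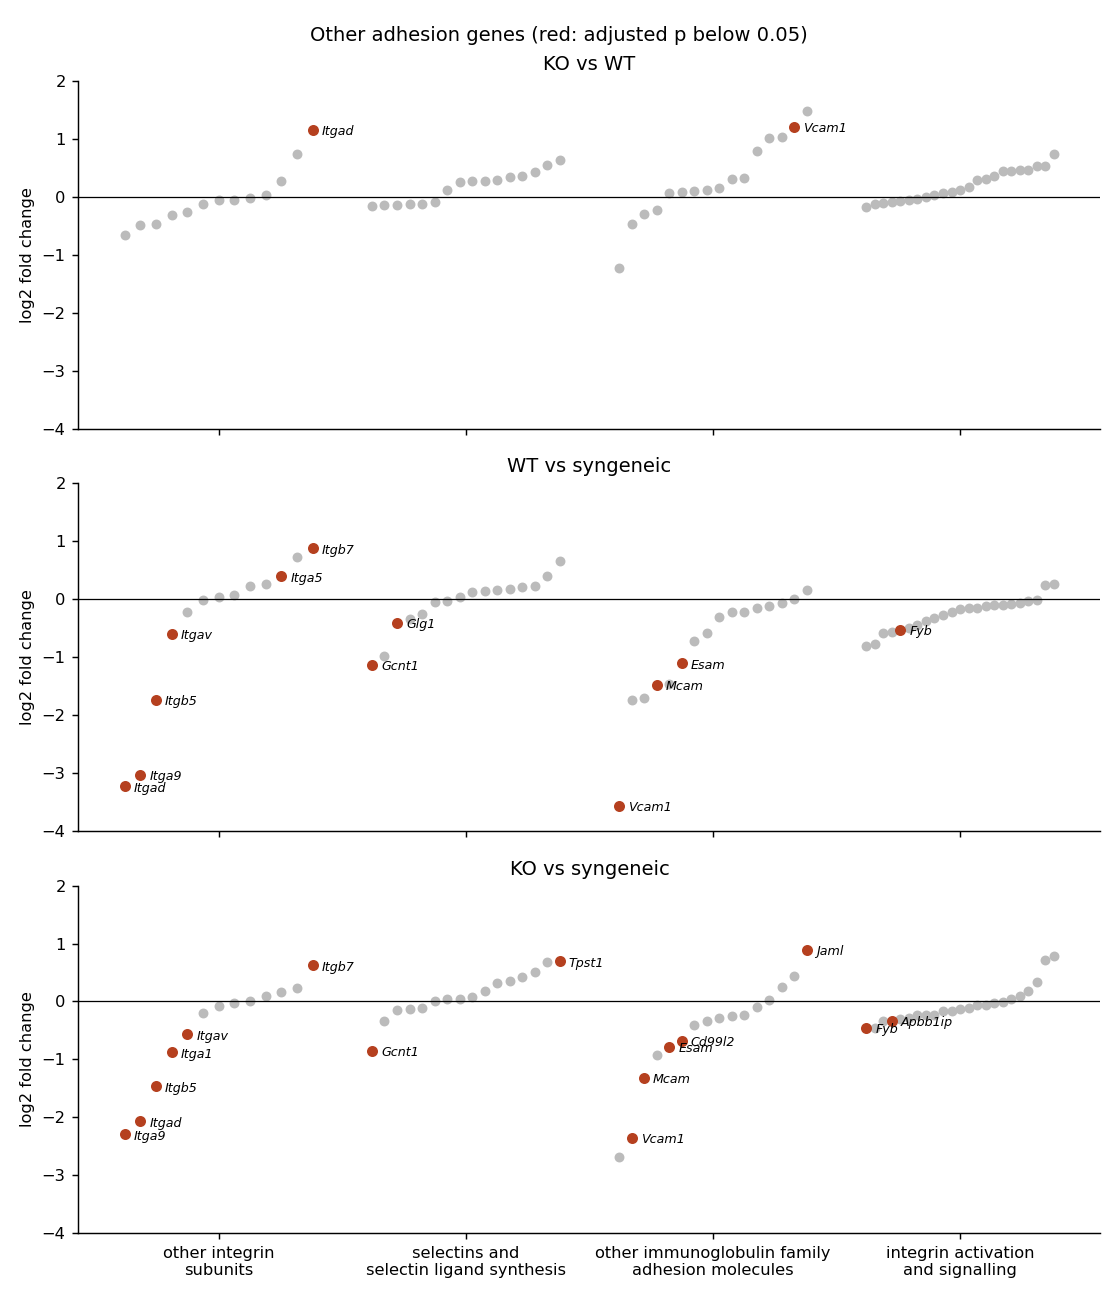
Log2 fold changes (vertical axis) of the 68 other adhesion genes tested, by list and comparison; red points had an adjusted p below 0.05 and carry the gene name, grey points did not. In KO vs WT the red points are Itgad (1.16) and Vcam1 (1.21), and in both comparisons with syngeneic cells most red points lie below 0.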

How the data were processed

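RNA of splenic Gr-1+ cells was measured on Illumina mouse BeadChips, 9 arrays on 2 chips. For every probe and array the authors deposited an intensity (signal) with its detection p-value. Software: GenomeStudio, per the submitters' processing notes, with neither version nor settings stated there. The deposited intensity values were already background-subtracted and quantile-normalized, as the values show: each array had an upper quartile of 102 and a maximum of 47219, and 35.6% of signals were at or below 0. The authors' series matrix, on a log2 scale, matched the deposited intensities to within 1.1e-06 and served as an alternative. The detection p-value columns deposited by the authors were used in an alternative only.

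Signals went through limma 3.58.1 (R 4.3.3): normexp with an offset of 50, quantile normalization, and a filter that kept the 20755 probes above a limit on at least 3 arrays. The limit, 14.3, was the 95th percentile of the signals of 1595 probes of sensory receptors and keratin-associated proteins. Symbols were read from the platform annotation (34885 probes with 1 symbol, 18 with several, 10378 unnamed here), with symbols checked by gene identifier for 34807 probes. Each of 10872 genes was represented by its brightest probe that passed. A mean per group was fitted over all 9 arrays with eBayes. The number of arrays limits the precision. The fit was tested on simulated data with independent arrays and, for each gene, the same spread in all groups. An outlying array such as WT replicate 2 was not simulated, so that test does not cover it.

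The members, lists and tests were chosen with earlier results of these data known. Named were all 9 members and, of each wider list, the genes called, at most 6 per list and comparison by smallest p; others are said to be chosen later. Same-numbered arrays of different groups did not deviate together (r of deviations from -0.167 to 0.111), so the replicate block is an alternative only. Other alternatives were each array left out, other background corrections, normalizations and filters, array weights, the mean of probes, and only the 6 arrays compared, which for WT vs syngeneic is the fit within 1 chip.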

Additional observations from a re-analysis of the deposited data

How the results depend on the processing

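Across the 21 alternatives the 24 member values kept direction and call in 410 of 504 cases, lost the call in 58, gained it in 19 and changed sign in 17. Leaving out 1 array moved the genes called in KO vs WT between 33 and 2174, in WT vs syngeneic between 481 and 3216 and in KO vs syngeneic between 650 and 4263, the highest each time without WT replicate 2. The members called lay between 0 and 4, 0 and 3, and 0 and 4, and the genes of the wider lists, whose recounts were chosen after seeing the data, between 1 and 14, 9 and 29, and 9 and 38. With the replicate block 31 genes were called in KO vs WT, 717 in WT vs syngeneic and 903 in KO vs syngeneic, with 0, 1 and 1 members and 1 wider gene in KO vs WT; the numbers are not shown to pair the arrays. Only the 6 arrays compared gave 2, 702 and 4003 genes, with 0, 1 and 4 members and 0, 10 and 36 wider genes. Array weights gave 2967, 4369 and 4587 genes, with 4, 3 and 4 members and 21, 32 and 37 wider genes; the weight of WT replicate 2 was 0.0415. Without background correction 0, 1 and 1 members were called and 1 wider gene in KO vs WT, and the series matrix values gave the same member and wider counts, with 89 genes in KO vs WT. An offset of 16 gave 0 members in KO vs WT and 1 in KO vs syngeneic. No filter gave 2 members in KO vs WT. Sign changes were all of uncalled values. Leaving out 1 array moved Selplg in KO vs syngeneic between -0.072 and 0.069, Itgb2 in KO vs WT between -0.23 and 0.17 and in WT vs syngeneic between -0.33 and 0.073, Itgam in KO vs syngeneic between -0.039 and 0.068, Itgal in WT vs syngeneic between -0.11 and 0.045, Icam1 in WT vs syngeneic between -0.098 and 0.0057, Icam2 in KO vs WT between -0.13 and 0.057 and Pecam1 in KO vs WT between -0.057 and 0.40. Array weights gave 0.031 for Selplg in KO vs syngeneic, 0.10 for Itgb2 in WT vs syngeneic and 0.054 for Icam2 in KO vs WT, and neqc gave 0.000102 for Itgam in KO vs syngeneic. Fits with fewer arrays have fewer degrees of freedom; beyond that the cause was not tested. Signals near the limit of 14.3, as for Itgax, give no fold change.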
